A study of Mus musculus with 17 samples.

Results

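Collagens are secreted proteins in which chains wind around each other in threes, and the make-up of the trimer decides what it builds. Fibrillar chains such as those of types I, III and V form the fibres of the interstitium. Type IV chains form the sheet of the basement membrane, which in fat surrounds each adipocyte and each vessel, and beaded filaments of type VI link the sheet to the fibres. The chains described here are all genes of the deposited count table whose symbol is Col, a number, the letter a and a number, which gave 44 of 21982 genes. Of these, 28 chains had a mean raw count of at least 10 over all libraries and are described. The other 16 were low, with mean raw counts between 0.0588 (Col26a1) and 5.53 (Col4a6): Col2a1, Col4a6, Col6a4, Col6a5, Col8a2, Col9a1, Col9a2, Col9a3, Col10a1, Col11a1, Col17a1, Col19a1, Col22a1, Col24a1, Col25a1 and Col26a1. All 28 described chains also passed the filter on low counts of the tests.

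RNA from brown adipose tissue, the heat-producing fat, was sequenced from 17 C57BL/6 mice as a library each. Littermates were Noc+/+, called wild type here, or Noc-/-, lacking the circadian protein Nocturnin encoded by Noct, and the tissue was sampled whole, with all its cell types. All mice were housed singly and without food for 4 h, either at 22 °C or at 6 °C. Groups were 4 wild types at 22 °C (1 male and 3 females), 5 wild types at 6 °C (1 male and 4 females), 4 knockouts at 22 °C (3 males and 1 female) and 4 knockouts at 6 °C (3 males and 1 female). Labelled ages, for which the labels give no unit, ran from 11.14 to 23.57, and every group held 2 mice at 11.14. The oldest mouse was 23.57 and 23.0 in wild types at 22 °C and 6 °C, and 23.57 and 17.0 in knockouts. The older knockouts were thus younger at 6 °C than at 22 °C. Replicates are different animals.

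Libraries held 18410748 to 47598200 counts, of which mitochondrially encoded genes took 43.4 to 57.3% and the 44 collagen chains 0.0528 to 0.131%. Noct stood at 91.5 to 176 CPM (read counts relative to library size) in wild types at 22 °C and at 3.37 to 34.2 CPM in knockouts at 22 °C, and at 238 to 457 CPM and 18.2 to 27.2 CPM in wild types and knockouts at 6 °C, so the knockouts lay below the wild types at both temperatures. All 8 brown adipocyte markers were present, with a summed level between 10387 and 15606 CPM. The summed level of 10 skeletal muscle markers ran from 0.541 to 897 CPM, with libraries near both ends in the knockouts at 6 °C. In whole tissue, fewer cells of a type and less RNA per cell cannot be told apart.

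Brown fat collagen RNA was mostly type IV. Levels between chains are compared as RPKM, a read count corrected for the length of the gene and for the size of the library. Col4a1, which pairs with Col4a2 in the most widespread basement membrane trimer, had a mean of 45.5 RPKM over the 17 libraries (23.0 to 71.5). Col4a2 had a mean of 36.1 RPKM (16.3 to 51.5). The next chain was Col3a1, the fibrillar chain of pliable connective tissue, at 9.53 RPKM (6.90 to 12.6), and its highest library lay below the lowest library of Col4a2. Col6a1, of the beaded filament, followed at 5.43 RPKM (3.45 to 7.23). From there the order was flat: Col27a1, Col15a1, Col1a1, Col6a2, Col5a3 and Col1a2 had means of 3.17, 3.05, 3.05, 2.87, 2.81 and 2.45 RPKM, and their ranges over libraries overlapped. Another 3 chains lay between 1.12 and 1.69 RPKM (Col5a1, Col5a2 and Col6a3), and the remaining 15 lay between 0.106 RPKM (Col16a1) and 0.868 RPKM (Col18a1).

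**Figure D1:**
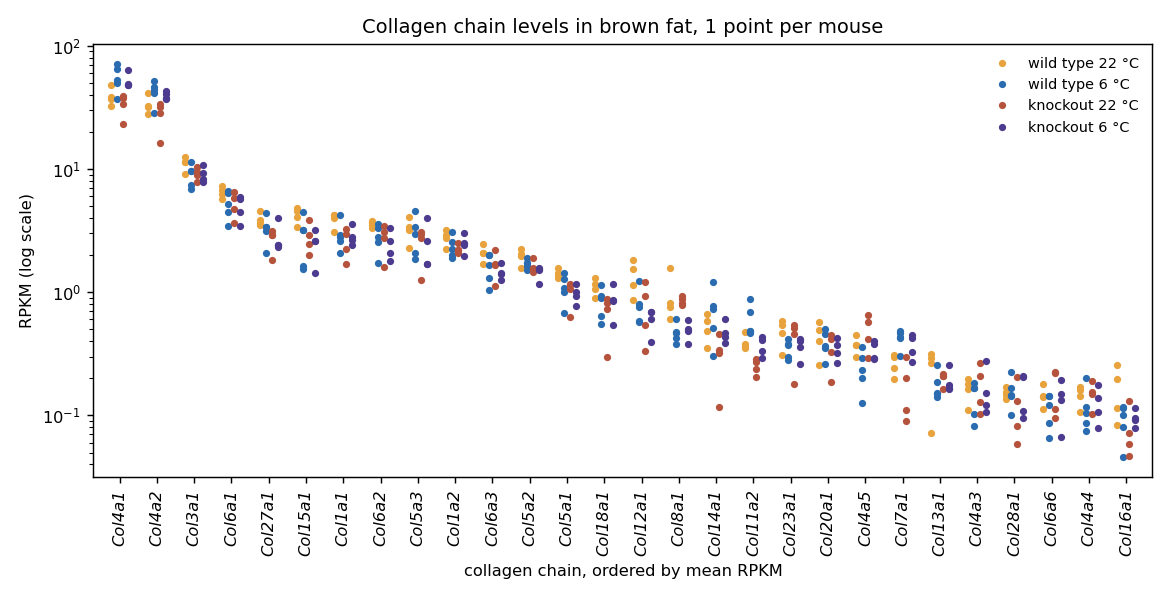
Level of each of the 28 described collagen chains in RPKM on a log axis, 1 point per mouse, coloured by group. Col4a1 and Col4a2 stand above every other chain in each group, and from Col27a1 to Col1a2 the ranges over libraries overlap.

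By structural class, the 6 basement membrane chains took 65.6% of the summed collagen RPKM on average (55.9 to 76.3% over libraries). The 11 fibrillar chains took 19.9% (14.5 to 25.1%) and the 6 beaded filament chains 8.28% (4.97 to 10.7%). The multiplexins Col15a1 and Col18a1, which sit at basement membranes and carry endostatin-like ends, took 3.18%. The 9 fibril-associated chains together took 1.57%. Within the basement membrane class the pair Col4a1 and Col4a2 stood far above Col4a5 (0.352 RPKM), Col4a3 (0.160 RPKM) and Col4a4 (0.133 RPKM), the chains of the trimers best known from kidney and cochlea. Collagens that mark cartilage (Col2a1, Col9a1, Col10a1 and Col11a1) were among the low chains, whereas Col11a2, their fibrillar relative, was measured at 0.414 RPKM.

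Ratios of RPKM within a library are given for chains that assemble together. Col6a1 exceeded Col6a2 in all 17 libraries, with a ratio of 1.92 ± 0.172 (SD, n = 17). Col4a1 exceeded Col4a2 in all 17 as well, with a ratio of 1.25 ± 0.126 (SD, n = 17). Col1a1, which supplies most of the type I trimer beside Col1a2, had a ratio to Col1a2 of 1.23 ± 0.182 (SD, n = 17), with a range from 0.819 to 1.46. Col5a1 was below Col5a2 except in 1 knockout at 6 °C, with a ratio of 0.670 ± 0.152 (SD, n = 17) and a range from 0.401 to 1.01. These ratios overlapped between groups: the ratio of Col4a1 to Col4a2 ran from 1.15 to 1.18 in wild types at 22 °C and from 1.14 to 1.41 in wild types at 6 °C, where 4 of 5 mice lay above every wild type at 22 °C. In knockouts this ratio ran from 1.16 to 1.41 at 22 °C and from 1.13 to 1.56 at 6 °C. The difference in this ratio was not tested.

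Col4a1 and Col4a2 lie head to head on chromosome 8 (build GRCm38). Col4a1 spans 11198423 to 11312826 on the minus strand and Col4a2 spans 11312805 to 11449287 on the plus strand, so their annotated starts overlap by 22 bases and the promoter window of each overlaps an exon of its partner. No source used here gives the strand setting of the authors' counting, so reads in the overlap could have been counted for neither or either gene. A stretch of 30 bases, shown because it lies just before the start of Col4a2 and inside its partner, runs from 49 to 20 bases before the start of Col4a2, within the annotated 5′ UTR of Col4a1, at chr8:11312756-11312785 on the plus strand. Capitals mark a GC box read on the minus strand (GGGCGG) and a CCAAT box read on the plus strand (CCAAT).
Col4a2 upstream: gCCGCCCgaggagctccCCAATttgttggc
Among 32851 promoter windows of 250 bases from RefSeq (GRCm38.p6), searched on both strands, 33.8% held CCAAT and 32.7% held GGGCGG. These matches describe letters and are not shown to be sites. RefSeq windows were found for 35 of the 44 chains and for 23 of the 28 described.

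Cold raised the type IV pair in wild types. The comparison asks which chains differ after 4 h at 6 °C, and a chain is called where its adjusted p in edgeR's quasi-likelihood test, with Benjamini-Hochberg adjustment over 12486 genes, is under 0.05. Levels of a single chain are given as CPM scaled by TMM, a factor per library that sets most genes level. Col4a1 stood at 239, 328, 217 and 254 CPM in wild types at 22 °C and at 387, 508, 312, 393 and 502 CPM in wild types at 6 °C. Only the lowest cold mouse was below the highest mouse at 22 °C, and the log2 fold change was 0.71 ± 0.16 (SE, edgeR adjusted p = 0.0044). Col4a2 stood at 185, 251, 167 and 191 CPM at 22 °C and at 302, 318, 214, 272 and 321 CPM at 6 °C. The same pair of mice overlapped (wild type 2 at 22 °C and wild type 3 at 6 °C), and the log2 fold change was 0.53 ± 0.16 (SE, edgeR adjusted p = 0.0215).

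Col7a1 and Col11a2 also rose in wild types, and Col8a1 fell. Col7a1 forms the anchoring fibrils that tie basement membranes to the matrix below. Its level was 1.77, 2.92, 2.24 and 2.73 CPM at 22 °C and 4.99, 5.21, 4.93, 3.12 and 4.19 CPM at 6 °C. The groups did not overlap, and the log2 fold change was 0.88 ± 0.25 (SE, edgeR adjusted p = 0.0158). Col11a2, a minor fibrillar chain that sets fibre width in cartilage, stood at 2.28, 2.27, 2.18 and 2.86 CPM at 22 °C and at 6.23, 3.47, 5.32, 3.32 and 2.98 CPM at 6 °C. Every cold mouse was above every mouse at 22 °C, and the log2 fold change was 0.81 ± 0.22 (SE, edgeR adjusted p = 0.0103). All 8 cartilage and tendon markers had mean raw counts under 10, and their summed level was 0.164 to 1.44 CPM. Col8a1, a short chain of hexagonal networks around vessels, stood at 6.97, 3.81, 2.81 and 3.42 CPM at 22 °C and at 2.04, 2.51, 2.44, 3.06 and 2.26 CPM at 6 °C. The cold mice reached into the lower part of the range at 22 °C, and the log2 fold change was -0.79 ± 0.24 (SE, edgeR adjusted p = 0.0201).

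Altogether 4 of 28 chains rose and 1 fell in wild types, against 14.3% and 13.3% of all 12486 genes tested, so the share of chains that rose was that of all genes and the share that fell was below it. The median log2 fold change was -0.12 over the 28 chains and -0.03 over all genes. Leaving out wild type 1 at 22 °C reduced the called chains from 5 to 2, because Col4a2 (adjusted p = 0.0576), Col7a1 (adjusted p = 0.0580) and Col8a1 lost their calls, and Col8a1 moved to -0.42. Leaving out wild type 2 at 6 °C left 3 called, without Col4a2 (adjusted p = 0.0577) and Col7a1 (adjusted p = 0.0643), whereas by limma on log2(RPKM + 1), which changes the scaling, the offset and the test together, 881 of all genes rose and 3115 fell in place of 1786 and 1664, and Col4a1 (0.48, adjusted p = 0.0556) and Col4a2 (0.31, adjusted p = 0.221) were not called.

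**Figure D2:**
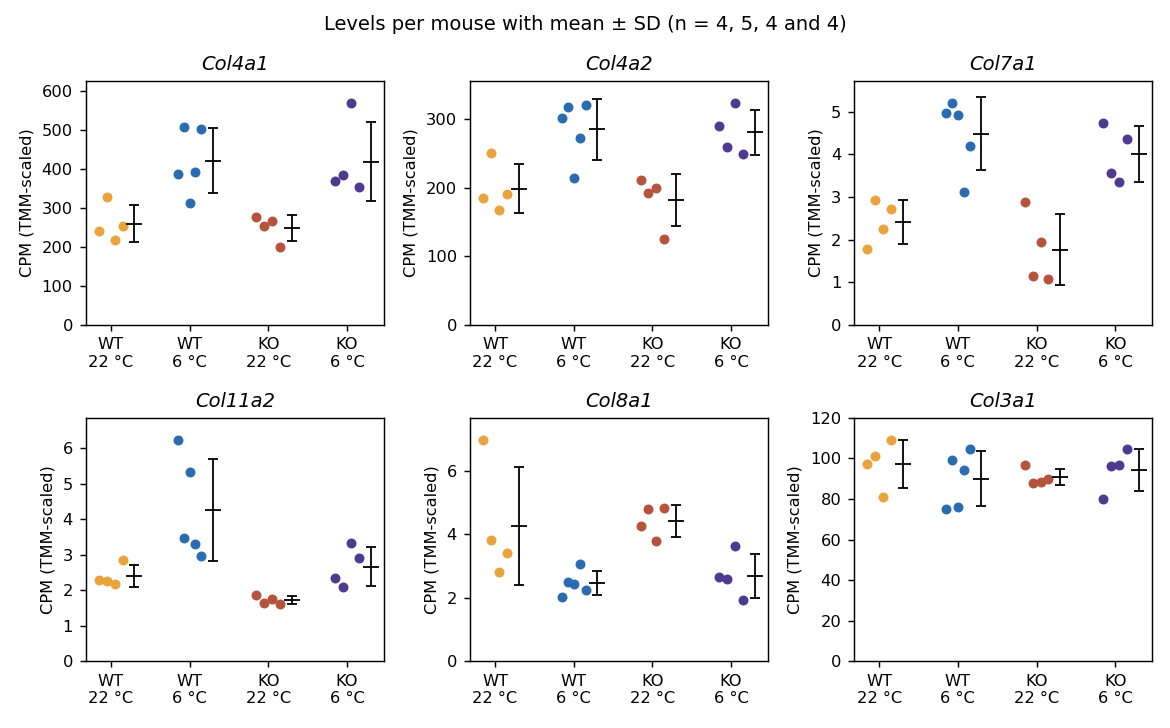
Levels of the 5 chains called in a cold comparison and of Col3a1 in TMM-scaled CPM, 1 point per mouse, with the mean and SD of each group beside the points. Col7a1 and Col11a2 show no overlap between 22 °C and 6 °C in either genotype, and Col3a1 overlaps throughout.

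In knockouts Col4a1, Col4a2 and Col7a1 rose as well. Col4a1 stood at 276, 254, 265 and 200 CPM in knockouts at 22 °C and at 369, 384, 568 and 353 CPM at 6 °C. The groups did not overlap, and the log2 fold change was 0.74 ± 0.17 (SE, edgeR adjusted p = 0.0056). Col4a2 stood at 211, 192, 200 and 126 CPM at 22 °C and at 290, 260, 323 and 249 CPM at 6 °C. Again every cold knockout was above every knockout at 22 °C, with a log2 fold change of 0.62 ± 0.17 (SE, edgeR adjusted p = 0.0142). Col7a1 stood at 2.87, 1.15, 1.95 and 1.08 CPM at 22 °C and at 4.74, 3.56, 3.36 and 4.37 CPM at 6 °C, a log2 fold change of 1.19 ± 0.27 (SE, edgeR adjusted p = 0.00502) without overlap.

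Col11a2 and Col8a1 missed the threshold in knockouts. Col11a2 stood at 1.87, 1.64, 1.76 and 1.62 CPM at 22 °C and at 2.34, 2.09, 3.32 and 2.92 CPM at 6 °C. The values did not overlap, and the log2 fold change was 0.63 ± 0.24 (SE, edgeR adjusted p = 0.0638). Col8a1 stood at 4.25, 4.78, 3.78 and 4.83 CPM at 22 °C and at 2.64, 2.59, 3.62 and 1.94 CPM at 6 °C, again apart, with a log2 fold change of -0.71 ± 0.25 (SE, edgeR adjusted p = 0.0518). Col14a1, a chain that decorates the surface of fibrils, stood at 3.04, 0.834, 2.14 and 2.79 CPM in knockouts at 22 °C and at 4.34, 3.21, 3.23 and 3.22 CPM at 6 °C. In wild types Col14a1 stood at 4.08, 2.27, 3.08 and 3.65 CPM at 22 °C and at 5.38, 2.20, 4.07, 8.52 and 5.12 CPM at 6 °C. Its groups overlapped in wild types and not in knockouts. Col14a1 had a log2 fold change of 0.70 ± 0.29 (SE, edgeR adjusted p = 0.0996) in knockouts and of 0.55 ± 0.27 (SE, edgeR adjusted p = 0.135) in wild types.

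In knockouts 3 of 28 chains rose and 0 fell by edgeR, against 11.6% and 10.0% of all genes, with 6 chains at an unadjusted p under 0.05 against 33.8% of all genes. DESeq2's Wald test called 4 that rose and 1 that fell, against 13.7% and 10.9% of all genes. The median log2 fold change was 0.04 over the chains and -0.02 over all genes, and limma on log2(RPKM + 1) left Col4a2 uncalled (0.55, adjusted p = 0.0696).

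**Figure D3:**
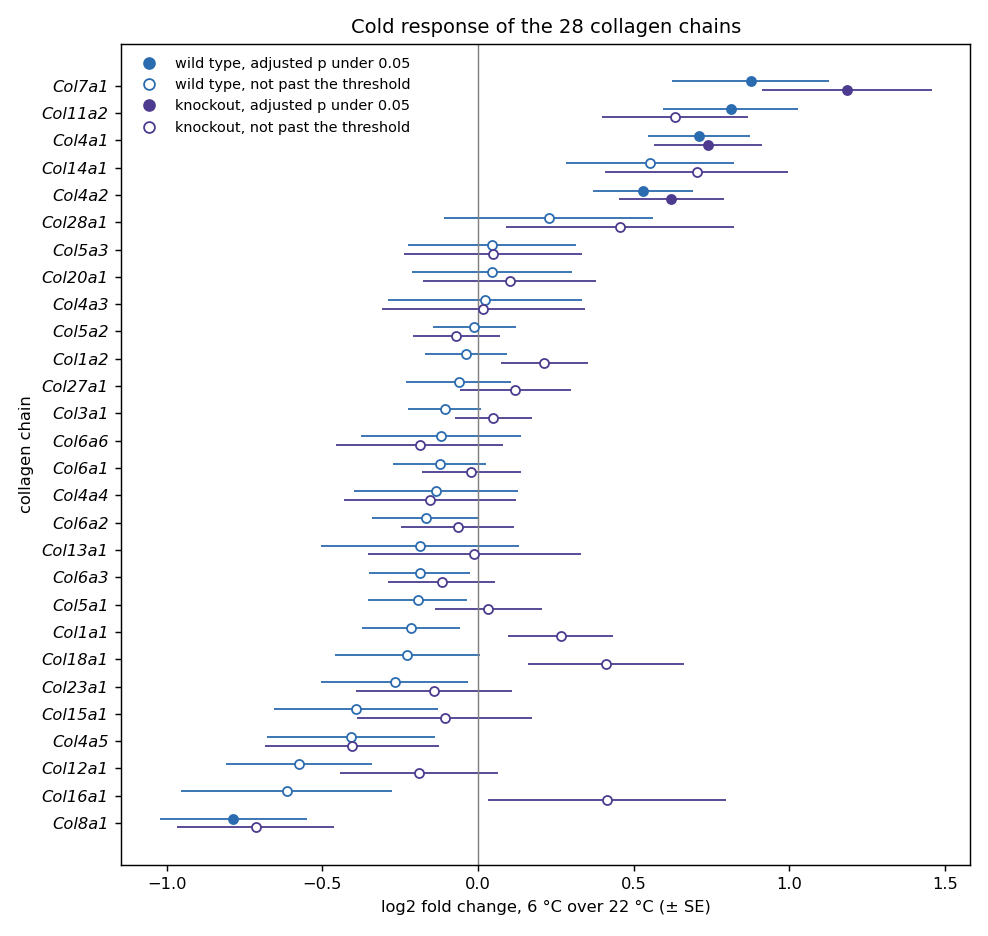
Log2 fold change of 6 °C over 22 °C with its standard error for the 28 chains, in wild types and in knockouts, with filled points where the adjusted p was under 0.05. Col7a1, Col4a1 and Col4a2 are filled on the right in both genotypes, and Col8a1 is lowest in both.

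Averaged over both genotypes, a comparison added after the data were seen, 5 of 28 chains rose and 1 fell, against 20.6% and 20.5% of all genes. Col4a1 (0.72, adjusted p = 0.000129), Col7a1 (1.03, adjusted p = 0.000283), Col4a2 (0.58, adjusted p = 0.000789), Col11a2 (0.72, adjusted p = 0.00157) and Col14a1 (0.63, adjusted p = 0.0175) rose in this edgeR contrast. Col8a1 fell, with a log2 fold change of -0.75 (adjusted p = 0.0022). This contrast pools the 17 mice of the separate comparisons and is not independent of them.

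The type IV pair took a larger share of collagen RNA in the cold mice. Col4a1 and Col4a2 together made up 58.1 ± 3.36% (SD, n = 4) of the summed collagen RPKM in wild types at 22 °C and 70.1 ± 2.40% (SD, n = 5) in wild types at 6 °C. Knockouts stood at 60.4 ± 1.99% (SD, n = 4) at 22 °C and at 70.4 ± 4.24% (SD, n = 4) at 6 °C. The ranges of 22 °C and 6 °C did not overlap in either genotype. The summed level of the other 42 chains was 393 ± 28.1 CPM (SD, n = 4) and 360 ± 51.5 CPM (SD, n = 5) in wild types at 22 °C and 6 °C, and 337 ± 35.3 CPM and 349 ± 27.1 CPM (SD, n = 4 each) in knockouts, with overlapping ranges.

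**Figure D4:**
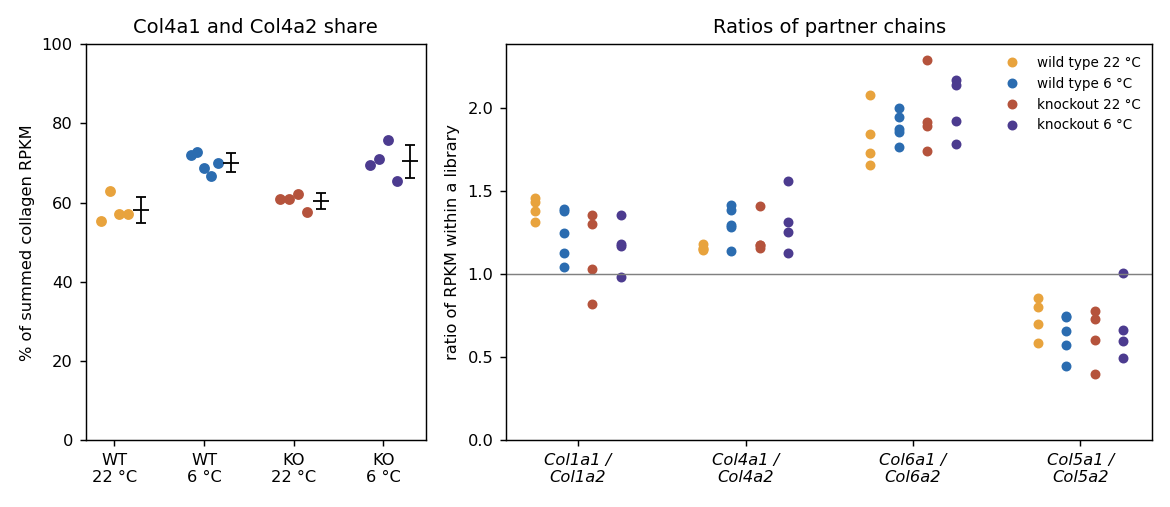
Left, share of Col4a1 and Col4a2 in the summed collagen RPKM of each mouse with group mean and SD. Right, ratio of RPKM within each library for 4 pairs of partner chains. The share is higher in every cold mouse than in every mouse at 22 °C of the same genotype, and the ratios overlap between groups.

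The abundant chains of fibres and filaments did not pass the test in either cold comparison. Col3a1 stood at 97.2, 101, 81.1 and 109 CPM in wild types at 22 °C and at 75.2, 99.3, 76.3, 94.0 and 105 CPM at 6 °C. In knockouts it stood at 96.9, 88.1, 88.5 and 89.9 CPM and at 79.8, 96.4, 96.9 and 105 CPM. All these ranges overlapped, and the log2 fold changes were -0.11 ± 0.12 and 0.05 ± 0.12 (SE).

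Col1a1, the major chain of type I fibres, stood at 24.0, 23.9, 18.2 and 24.6 CPM in wild types at 22 °C and at 17.8, 19.2, 15.3, 19.0 and 26.3 CPM at 6 °C. Knockouts had 20.2, 14.9, 18.4 and 12.99 CPM of Col1a1 at 22 °C and 18.04, 19.4, 19.1 and 23.3 CPM at 6 °C. Its log2 fold changes, -0.22 ± 0.16 in wild types and 0.27 ± 0.17 in knockouts (SE), had opposite signs without a call. Col27a1, a fibrillar chain best known from growing cartilage, stood at 51.6, 41.9, 42.9 and 44.7 CPM and at 45.7, 42.6, 30.3, 56.6 and 41.6 CPM in wild types at 22 °C and 6 °C. In knockouts Col27a1 had 38.9, 38.5, 36.3 and 27.8 CPM and then 32.6, 31.9, 37.4 and 51.7 CPM, and the groups overlapped in both genotypes.

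No beaded filament chain was called in either cold comparison. Col6a1 stood at 27.7, 26.9, 22.6 and 24.0 CPM and at 20.4, 23.7, 17.1, 28.0 and 27.4 CPM in wild types at 22 °C and 6 °C, and at 27.1, 21.1, 24.3 and 18.7 CPM and 25.5, 20.5, 18.1 and 25.5 CPM in knockouts. Its partner Col6a2 stood at 25.3, 27.8, 24.9 and 27.6 CPM and at 22.0, 24.3, 16.3, 27.4 and 27.9 CPM in wild types, and at 27.3, 23.0, 24.1 and 15.5 CPM and 22.4, 18.3, 17.9 and 27.2 CPM in knockouts. Their log2 fold changes lay between -0.17 and -0.02 with standard errors from 0.15 to 0.18. Col15a1, a multiplexin of the vessel and muscle basement membrane, had 26.5, 26.2, 19.4 and 23.0 CPM in wild types at 22 °C and 10.8, 21.3, 10.9, 20.2 and 26.8 CPM at 6 °C. Knockouts had 17.5, 24.7, 14.8 and 14.9 CPM of Col15a1 at 22 °C and 20.9, 9.59, 20.0 and 16.4 CPM at 6 °C. The cold wild types spread widely, the groups overlapped in both genotypes, and the change was not called (-0.39 ± 0.26 and -0.11 ± 0.28, SE).

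Among the remaining chains, Col12a1, which binds fibrils in tissue under tension, came nearest in wild types with -0.57 ± 0.23 (SE, edgeR adjusted p = 0.0761). Col16a1 (-0.61 ± 0.34 and 0.41 ± 0.38, SE) and Col18a1 (-0.23 ± 0.23 and 0.41 ± 0.25, SE) had opposite signs in wild types and knockouts, neither called. Col18a1 overlaps Slc19a1 on the other strand, so their reads may have been mixed in the counting. Col4a5, Col4a3 and Col4a4, the minor type IV chains, had log2 fold changes of -0.41, 0.02 and -0.13 in wild types and of -0.41, 0.02 and -0.15 in knockouts, none called. Within the basement membrane class 2 of 5 tested chains rose in each genotype (40.0%, against 14.3% and 11.6% of all genes), and these were Col4a1 and Col4a2.

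Promoter windows of the 3 other chains called in a cold comparison are shown as sequence only. Each is the 250 bases before the RefSeq start (GRCm38.p6), 5′ to 3′ on the gene's strand: Col7a1 at chr9:108953336-108953585 (plus), Col11a2 at chr17:34038888-34039137 (plus) and Col8a1 at chr16:57754738-57754987 (minus). Capitals mark matches on either strand to the CCAAT box (CCAAT), the GC box (GGGCGG), the TATA box (TATAAA), the core of the CRE of cAMP-responsive factors (TGACG) and the core of the hypoxia response element (ACGTG).
Col7a1: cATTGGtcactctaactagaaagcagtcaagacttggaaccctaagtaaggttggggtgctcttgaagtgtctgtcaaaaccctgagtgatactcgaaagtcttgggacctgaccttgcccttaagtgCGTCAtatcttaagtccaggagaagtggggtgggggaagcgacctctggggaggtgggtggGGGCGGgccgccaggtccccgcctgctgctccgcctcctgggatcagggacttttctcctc
Col11a2: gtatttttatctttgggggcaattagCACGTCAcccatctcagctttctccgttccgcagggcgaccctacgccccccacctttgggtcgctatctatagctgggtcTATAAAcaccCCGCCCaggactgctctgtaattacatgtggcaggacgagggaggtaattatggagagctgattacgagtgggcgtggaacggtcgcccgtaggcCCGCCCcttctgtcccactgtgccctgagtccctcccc
Col8a1: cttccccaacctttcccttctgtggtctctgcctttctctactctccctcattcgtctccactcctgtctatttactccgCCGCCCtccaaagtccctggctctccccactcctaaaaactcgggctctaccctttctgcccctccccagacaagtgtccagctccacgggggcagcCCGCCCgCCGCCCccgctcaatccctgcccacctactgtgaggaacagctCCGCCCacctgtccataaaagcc
Col7a1 held a reversed CCAAT box, a reversed CRE core and a GC box 61 bases before the start. Col11a2 held reversed GC boxes and the letters TATAAA at -143 to -138 from the RefSeq start. Far upstream it held a reversed CRE core and a reversed hypoxia core that overlap in the run CACGTCA. The GENCODE start of Col11a2, 34039437, lies downstream of the RefSeq start used for this window. Col8a1 held 4 reversed GC boxes and none of the other motifs. Among all 32851 windows, 12.4% held TATAAA, 17.8% held TGACG and 16.6% held ACGTG, and the full CRE (TGACGTCA), held by 1.55%, was in none of these windows. CCAAT was held by 33.8% and GGGCGG by 32.7% of all windows. A missing match says only that these letters are not in the window, and a relation of the letters to the cold changes was not tested.

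Genotype and cold response were compared directly. At 22 °C edgeR called 0 of 28 chains between knockouts and wild types, against 0.0160% of all genes, and DESeq2 and limma also called 0. At an unadjusted p under 0.05 stood 1 chain, against 3.89% of all genes: Col1a1 was lower in knockouts by a log2 fold change of -0.43 ± 0.18 (SE, edgeR unadjusted p = 0.0255). The median log2 fold change at 22 °C was -0.16 over the chains and -0.002 over all genes. This count of chains depended on the fit. It was 4 without the sex term (beside 599 of 12486 genes) and 6 with replicate number in place of sex (beside 520). With limma on log2(RPKM + 1) it was 4 (beside 975), and without wild type 2 at 22 °C it was 0. At 6 °C edgeR, DESeq2 and limma again called 0 chains, against 0.0400% of all genes by edgeR. Here Col11a2 was the only chain with an unadjusted p under 0.05, against 3.15% of all genes (-0.61 ± 0.24, SE, edgeR unadjusted p = 0.0237). At 22 °C Col11a2 (-0.43 ± 0.25, SE) and Col27a1 (-0.35 ± 0.19, SE) were lower in every knockout than in every wild type. The other chains overlapped between the genotypes at 22 °C, and all chains did at 6 °C.

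The difference of the cold responses, knockout minus wild type, was called for 0 chains by edgeR, DESeq2 and limma, against 0.00801% of all genes by edgeR. No chain had an unadjusted p under 0.05 either, against 2.48% of all genes. The difference was 0.03 ± 0.24 (SE) for Col4a1, 0.09 ± 0.23 for Col4a2, 0.31 ± 0.37 for Col7a1, -0.18 ± 0.32 for Col11a2 and 0.07 ± 0.35 for Col8a1. Calls of Col11a2 and Col8a1 in wild types alone therefore do not show a response that differs between genotypes. Col1a1 had 0.48 ± 0.23 (SE, edgeR unadjusted p = 0.0512). With 4 or 5 mice in a group, the precision of each difference is that of its standard error, and sex is spread unevenly over the genotypes and was fitted as a term.

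Labelled age was compared within groups, since each holds 2 mice at 11.14 and 2 or 3 older ones. With group and sex in the edgeR fit 0 chains were called, against 0.0160% of all genes, and DESeq2 and limma also called 0. At an unadjusted p under 0.05 stood 7 of 28 chains, against 957 of 12486 genes (7.66%), so the share was higher among the chains. Col12a1, Col7a1, Col4a5, Col20a1 and Col23a1 had negative slopes, and Col8a1 and Col15a1 had positive ones. The count of 7 moved with the fit. It was 4 without wild type 1 at 22 °C (beside 513 of 12537 genes) and 9 without knockout 1 at 22 °C (beside 893 of 12585). With replicate number as a term it was 5, both with sex (beside 1194 of 12486 genes) and without (beside 1320). Col12a1 had the smallest p, with a slope of -0.055 ± 0.014 (SE) on the log2 scale per unit of labelled age (edgeR unadjusted p = 0.00132, adjusted p = 0.331). Its mean was 22.9 CPM in the youngest and 13.5 CPM in the older wild types at 22 °C, and 15.4 CPM and 7.14 CPM in the knockouts at 22 °C. In the cold the same means were 14.8 and 10.8 CPM in wild types and 10.9 and 8.14 CPM in knockouts. Mice of 1 labelled age may share a cohort, and cohort and age cannot be told apart. The cold comparisons hold no age term. With labelled age added to them, edgeR called 4 chains that rose and 2 that fell in wild types, beside 1818 and 1676 of 12486 genes. In knockouts 3 chains rose and 0 fell, beside 1307 and 1134 genes.

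Among genes that modify and fold the chains, P4ha1 and P4ha2 rose in both genotypes under every alternative run. The counts of each companion list are to be read against all genes tested, of which 14.3% rose and 13.3% fell in wild types and 11.6% and 10.0% in knockouts. Of 19 tested members of the folding and modification list, 5 rose (26.3%) and 3 fell (15.8%) in wild types and 4 rose (21.1%) and 1 fell (5.26%) in knockouts, with median log2 fold changes of -0.19 and -0.10 beside -0.03 and -0.02 over all genes. P4ha1, the catalytic subunit of the prolyl hydroxylase that lets the triple helix hold at body temperature, had 26.9 ± 10.4 CPM (SD, n = 4) at 22 °C and 119 ± 20.6 CPM (SD, n = 5) at 6 °C in wild types, a log2 fold change of 2.16 ± 0.28 (SE, edgeR adjusted p = 6.45e-05). In knockouts P4ha1 went from 21.4 ± 4.87 CPM to 71.6 ± 26.4 CPM (SD, n = 4 each), a log2 fold change of 1.74 ± 0.29 (SE, edgeR adjusted p = 0.000456). Its relative P4ha2 rose by 1.19 and 0.87, and the lysyl hydroxylase Plod2 by 1.34 and 0.92 on the log2 scale. P3h4, a partner in prolyl 3-hydroxylation, fell by 0.83 in wild types, and the galactosyltransferase Colgalt2 fell by 1.04 in knockouts. Other called members, named after their values were seen, were Plod1 (rose in both genotypes) and, in wild types, Tmem38b (rose), Crtap and Colgalt1 (both fell). Serpinh1, the collagen chaperone HSP47, was not called (0.04 and -0.18). Of 29 alternatives, 8 ended the call of Plod2 in knockouts, 9 and 6 that of Plod1 in wild types and knockouts, 3 each those of P3h4 and Tmem38b and 1 that of Colgalt1.

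Among export and cross-linking genes Sar1a, Sar1b, Mia3 and Lox rose in both genotypes. Of 8 tested export genes 3 rose in each genotype (37.5%): Sar1b (0.69 and 0.50), Sar1a (0.35 and 0.41), both of the COPII coat, and Mia3 (0.29 and 0.31), the receptor that loads procollagen into carriers. Tango2, a listed gene whose part in procollagen export is not shown here, fell by 0.40 in wild types. It was the only listed gene to fall in either genotype. The calls of Tango2 and Mia3 were the least stable: 15 of 29 alternatives ended that of Tango2, and 12 in wild types and 13 in knockouts that of Mia3. Sar1b lost its call in knockouts in 8, and Sar1a in 2 and 1. Of 9 tested genes that cut propeptides or cross-link, Lox, the lysyl oxidase that starts cross-links, rose by 0.78 and 0.66, and Loxl2 rose by 0.60 in knockouts, shares of 11.1% and 22.2%. The call of Loxl2 ended in 17 of 29 alternatives, and that of Lox in knockouts in 3, among them leaving out knockout 1 at 22 °C or knockout 1 at 6 °C.

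Of 13 tested breakdown genes 1 rose (7.69%) and 4 fell (30.8%) in wild types and 1 rose in knockouts, with medians of -0.30 and -0.10. Timp3, an inhibitor of matrix proteases held in the matrix, rose by 1.11 and 0.76, and it overlaps Syn3 on the other strand. In wild types Mmp11, Mmp9, Mmp14 and Mmp15, all matrix proteases, fell by 1.59, 1.20, 0.74 and 0.59, and in knockouts they were not called (-1.18, -0.24, -0.09 and -0.44), and Mmp11 overlaps Chchd10 on the other strand. The call of Mmp9 held in all 29 alternatives, whereas 17 ended that of Mmp14, 11 that of Mmp15 and 3 of 28 that of Mmp11, which was lost in both replicate blocks and without wild type 1 at 22 °C. Of 9 tested collagen receptors Adgrg1, an adhesion receptor that binds type III collagen, rose by 0.91 and 0.65, and the inhibitory receptor Lair1 fell by 1.30 in wild types. These counts lie near those of all genes, and 16 of 28 alternatives ended the call of Lair1 and 5 of 29 that of Adgrg1 in knockouts.

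Of partners of the type IV sheet, the laminin chains Lamb1 and Lamb3 rose and Pxdn and Lama4 fell in both genotypes. Of 17 tested basement membrane partners, 3 rose and 3 fell in each genotype (17.6% each way, against 14.3% and 13.3% of all genes in wild types and 11.6% and 10.0% in knockouts), with medians of -0.07 and 0.16. Lamb1, a laminin chain, stood at 120 ± 39.3 CPM (SD, n = 4) and 259 ± 51.4 CPM (SD, n = 5) in wild types and at 92.0 ± 18.4 CPM and 240 ± 23.3 CPM (SD, n = 4 each) in knockouts, and rose by 1.13 and 1.37. Lamb3 rose by 1.79 and 1.45, and it overlaps Hsd11b1 and G0s2 on the other strand, so reads of these genes may be mixed. Pxdn, the peroxidase that joins type IV trimers by sulfilimine bonds, fell by 1.39 and 0.99, and the laminin chain Lama4 fell by 0.94 and 0.67. Dag1 fell in both genotypes, Lama2 rose in wild types and Lama5 in knockouts, and these 3 were named after their values were seen. The calls of Lamb1, Lamb3 and Pxdn held in all 29 alternatives in both genotypes. That of Lama4 in knockouts ended without knockout 1 at 22 °C, and 13, 18 and 10 alternatives ended those of Lama2 in wild types and of Dag1 and Lama5 in knockouts.

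Of 22 tested fibril partners Fn1, fibronectin, rose by 0.46 and 0.83, and Thbs1 rose by 1.14 in knockouts, with 4.55% and 9.09% of the list below the shares of all genes. The call of Fn1 in wild types ended in 10 of 29 alternatives and that of Thbs1 in 8. Of 17 tested genes of TGF-beta signalling, a pathway that drives collagen transcription in many tissues, 2 rose (11.8%) and 1 fell (5.88%) in wild types, below the shares of all genes, and 4 rose (23.5%) in knockouts, with medians of -0.09 and 0.09. Ctgf, a known target of the pathway, rose by 1.00 and 1.87. Smad4 rose by 0.27 and Tgfbr3 fell by 0.43 in wild types, and Smad7 (0.82), Tgfbi (0.53) and Smad3 (0.53) rose in knockouts. Of 29 alternatives 14 ended the call of Tgfbr3, 10 that of Smad4, 14 that of Smad7, 3 that of Tgfbi, 1 that of Smad3 and 6 that of Ctgf in wild types, and none that of Ctgf in knockouts. Where a companion gene passed in 1 genotype only, the difference between the genotypes was not called.

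**Figure D5:**
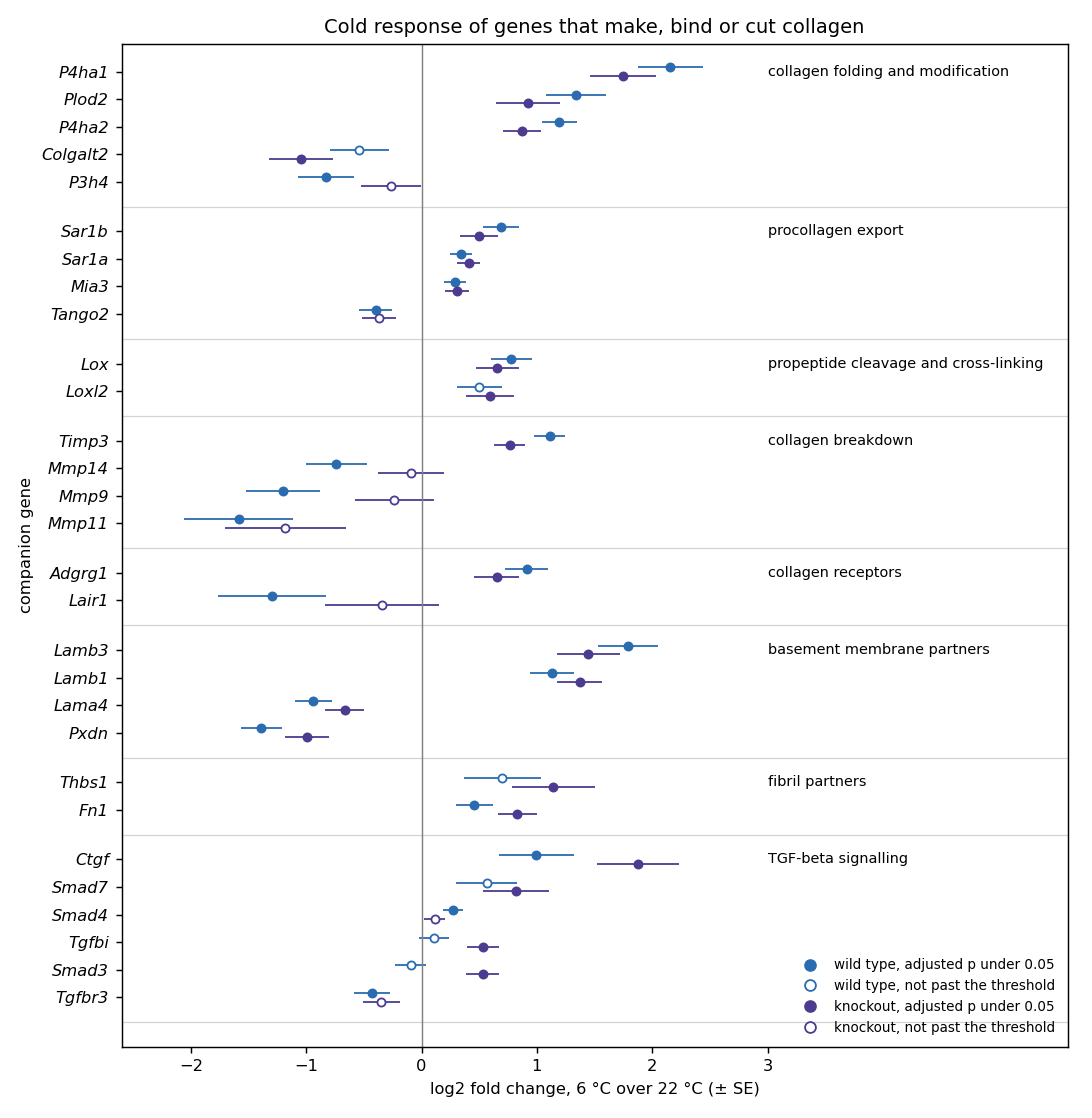
Log2 fold change of 6 °C over 22 °C with its standard error for the companion genes named by rule in each list, in wild types and knockouts, filled where the adjusted p was under 0.05. In wild types P4ha1 lies farthest to the right and Mmp11 farthest to the left.

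Markers of the cells that could supply the chains are given beside these changes. The summed level of 10 endothelial markers was 360 to 468 CPM and 440 to 548 CPM in wild types at 22 °C and 6 °C, and 423 to 462 CPM and 404 to 574 CPM in knockouts. Of these markers Pecam1 and Esam rose and Tek fell in both genotypes, and Tie1 fell in wild types. The sum of 8 mural markers overlapped between all groups (433 to 770 CPM), with Cspg4 and Pdgfrb lower at 6 °C in both genotypes. The sum of 10 markers of fibroblasts and adipose stroma overlapped too (309 to 449 CPM), with Ly6a as the only called member. The sum of 8 brown adipocyte markers was 10387 to 11699 CPM and 12481 to 15041 CPM in wild types at 22 °C and 6 °C, which did not overlap, and 10499 to 14101 CPM and 12360 to 15606 CPM in knockouts. Of these markers 3 rose (37.5%) and 1 fell (12.5%) in wild types and 2 rose (25.0%) in knockouts. Over all genes 14.3% rose and 13.3% fell in wild types, and 11.6% rose in knockouts. The median log2 fold change of the 8 markers was 0.07 in wild types and 0.05 in knockouts, beside -0.03 and -0.02 over all genes. The sum of 8 macrophage markers overlapped in wild types (53.6 to 76.0 CPM and 51.9 to 76.3 CPM) and lay higher in every cold knockout (47.6 to 54.5 CPM and 55.9 to 95.0 CPM), with Cd163 risen in both genotypes. White adipocyte markers summed to 33.2 to 52.5 CPM and 16.4 to 36.2 CPM in wild types and to 19.6 to 47.8 CPM and 17.2 to 30.9 CPM in knockouts, and of them Lep fell in both genotypes. The part of cell composition in the changes of Col4a1, Col4a2, Col7a1, Col11a2 and Col8a1 was not tested.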

How the data were processed

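RNA from brown adipose tissue of 17 mice was sequenced, 1 library per mouse, and grouped by the genotype and temperature in the labels. The authors deposited raw counts for 21982 gene symbols. Reads were handled with STAR and HTSeq on mm10 and GRCm38.p6, per the submitters' processing notes, and the annotation, the versions and the strand setting of the counting are not given in the sources used here. The authors also deposited RPKM values. In 12602 genes these equalled the deposited counts scaled to the column total and a fixed gene length, to a relative spread of at most 4.66e-14. Gene positions are from GENCODE (GRCm38) and promoter windows from RefSeq (GRCm38.p6).

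The count model used edgeR 4.0.16 under R 4.3.3: filterByExpr by group left 12486 genes, libraries were scaled by TMM, and 1 quasi-likelihood model with terms for group and labelled sex was fitted to all 17 libraries, leaving 12 residual degrees of freedom. Age was added as a slope in a separate model. Benjamini-Hochberg adjustment covered every tested gene, and an adjusted p-value under 0.05 made a call at any fold. Changes are log2 fold changes ± SE. DESeq2 1.42.0 and limma 3.58.1 served as alternatives, beside other filters, scalings and terms and leaving out each library. The fits were tested on simulated data. Library totals of 18410748 to 47598200 counts set the precision, and chains with a mean raw count under 10 are only named.

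The members and all gene lists were chosen with earlier results of these data known. Named with the value in every mouse are chains called in any comparison and the 8 chains with the highest mean RPKM, and of each companion list up to 4 called members with the largest change. Companion lists hold genes that fold, export, cut, cross-link, break down, bind or accompany collagen. The list symbols Mia2 and Wdnm1l were not matched, and 1 gene of the TGF-beta signalling list is not reported here.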

Additional observations from a re-analysis of the deposited data

Results flagged for a closer look

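Single mice stood apart from the rest of their group in 7 of 112 groups of 4 or 5 mice, where the gap to the nearest mouse exceeded Dixon's 95% limit for the group's range, and chance gives about 5%. Col4a1 was 568 CPM in knockout 3 at 6 °C and 353 to 384 CPM in the other 3. Without that mouse the rise of Col4a1 in knockouts was still called. Col11a2 was 2.86 CPM in wild type 4 at 22 °C and 2.18 to 2.28 CPM in the others. Col14a1 was 4.34 CPM in knockout 1 at 6 °C and 3.21 to 3.23 CPM in the others. Col1a1 was 18.2 CPM in wild type 3 at 22 °C and 23.9 to 24.6 CPM in the others, and the same mouse had the low Col13a1 value of 0.302 CPM against 1.12 to 1.28 CPM. Col23a1 was 1.21 CPM in knockout 4 at 22 °C and 2.66 to 2.94 CPM in the others. Col4a4 was 2.23 CPM in wild type 2 at 6 °C and 0.893 to 1.24 CPM in the others.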

How the results depend on the processing

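Of 394 recomputed values for 14 cold calls of chains, 375 kept their direction and call, 19 lost the call and 0 changed sign. These 14 include the calls of the contrast averaged over both genotypes, and chains called only in an alternative are not among them. Col4a2 in wild types lost its call in 7 of 29 alternatives. In wild types the 5 called chains became 3 with limma on log2(RPKM + 0.1) and 3 in the replicate block with sex, and ranged from 2 to 6 on leaving out each mouse. In knockouts the 3 called chains became 5 with DESeq2's Wald test, and the replicate block left 3. Same-numbered mice of different groups did not deviate together (24 pairs, correlations from -0.418 to 0.439, median 0.035), so the numbers are not treated as pairs. Leaving out wild type 3 or 4 at 22 °C also ended the call of Col4a2 in wild types (adjusted p = 0.0745 and 0.0535), and the replicate block with sex ended those of Col4a2 (adjusted p = 0.0560) and Col8a1 (adjusted p = 0.0929). Limma on log2(RPKM + offset) differs in scaling, offset and test together; the median of all genes in wild types went from -0.03 to -0.11 with an offset of 1 and to -0.21 with 0.1, and in knockouts an offset of 1 gave 975 genes that rose and 1387 that fell in place of 1446 and 1251. The cause was not tested. Of 54 calls of companion genes in the cold, 23 held in every alternative, 17 were lost in fewer than 10 and 14 in 10 or more, and 0 changed sign. The 2 genotype comparisons, the difference of the cold responses and age called 0 chains in every alternative run. Depth limits the chains under about 100 counts, and the 16 low chains are only named. Of the chains called in the cold, Col7a1 and Col11a2 lie under that level, with mean raw counts of 97.7 and 83.6. Col8a1 lies just above it, at 107.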

Other observations

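The chains differed in how far mice of 1 group lay apart. The pooled SD within groups on the log2(CPM + 0.5) scale was smallest for Col3a1 (0.17), Col5a2 (0.19) and Col1a2 (0.20), chains of the common fibril. It was 0.27 for Col4a1 and 0.26 for Col4a2, and largest for Col14a1 (0.50), Col12a1 (0.47), Col5a3 (0.45) and Col15a1 (0.44). Over all 17 mice the highest level of Col3a1 was 1.45 times the lowest, and that of Col14a1 was 10.2 times the lowest.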
